A study of Homo sapiens with 9 samples.

Results

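Genes of cholesterol and fatty acid synthesis were followed across the 9 libraries of a hairpin experiment in MCF10A, an immortalised, non-tumour line of human breast epithelium. The set held 35 genes, chosen by name from the 2 pathways and their regulators and matched by Ensembl gene ID. It does not hold every gene of these pathways. All 35 were found among the 60308 gene IDs, and all 35 passed the filter on low counts, which kept 18435 genes for testing. RNA was measured by stranded, paired-end sequencing after removal of ribosomal RNA, and levels are given as CPM, a gene's reads relative to all reads in genes at a common library size, with library sizes scaled by TMM. Every culture carried ectopic MYC (pBABE-hygro-MYC) and a mutant PI3K with the change H1047R (pMN-IRES-GFP-PI3KH1047R), so no group shows the line without either gene. Each culture also held a hairpin in pLKO-tetON-puro, a vector in which doxycycline turns the hairpin on, and all received 2 µg/mL doxycycline for 72 hours. The hairpin was a scrambled control in shSCR, and shG9a_1 and shG9a_4 target EHMT2, which encodes G9a, a histone methyltransferase. The groups had 3 libraries each, numbered 1 to 3 in the labels and described as biological replicates. No label ties a number to a day or a batch. The sources used here do not say whether the infected cells were a pool or a clone, or how the replicate cultures were grown, so p-values measure the spread between these libraries. The medium held 5% horse serum and 10 µg/mL insulin, so the cells had an outside source of sterols and a hormone that acts on lipid synthesis.

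The cholesterol pathway joins acetyl units into mevalonate and then farnesyl pyrophosphate, from which squalene, lanosterol and cholesterol are built. Fatty acid synthesis draws on the same acetyl units, which fatty acid synthase extends to palmitate before desaturases and elongases shape the chain. Most enzymes of both pathways are transcribed under the sterol regulatory element binding proteins SREBP-1 and SREBP-2, the products of SREBF1 and SREBF2. These factors are held at the endoplasmic reticulum by INSIG proteins when sterols are plentiful and are cleaved and released when sterols are scarce. SREBPs bind their targets together with other factors, among them NF-Y, which binds a CCAAT box.

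RefSeq promoter sequences (GRCh38.p14, from 250 bases before to 50 after a start site) were matched by symbol for 31 of the 35 genes. They were searched for 3 motifs. CCAAT, on either strand, was found in the window of 25 of the 31 genes (80.6%), against 39.7% of all 27305 genes with a window and 43.0% of the 11608 tested genes with one. CACGTG, an E-box that SREBPs and MYC can bind, was in 4 of the 31 (12.9%), against 8.77% of all genes and 12.2% of tested genes. These 4 were LSS, SC5D, INSIG1 and ELOVL5. TCACNCCAC, the core of a sterol regulatory element, was in SREBF2 alone of the 31 (3.23%), on the gene's strand from position -133. It was in 1.39% of all genes and 1.46% of tested genes. Only exact matches were counted, with N for any base, so elements that differ from this string were missed. A gene with several windows counted as holding a motif if any of them did, none of the 3 motifs lies within another, and a match of letters is not a measured binding site. The 150 bases before the start site are printed for 5 genes that the results below turn on: SREBF2 and 3 enzyme genes, and GPAM, the one gene of the 35 that passed as lower in the libraries numbered 3 before GC correction. Capitals mark these motifs on either strand, so that ATTGG is CCAAT on the other strand. For HMGCS1 and DHCR7 the window is 1 of 2 in the table. The windows are chr22:41832955-41833104 (plus strand) for SREBF2, chr1:155308716-155308865 (plus) for FDPS, chr5:43313413-43313562 (minus) for HMGCS1, chr11:71448394-71448543 (minus) for DHCR7 and chr10:112183766-112183915 (minus) for GPAM.
SREBF2: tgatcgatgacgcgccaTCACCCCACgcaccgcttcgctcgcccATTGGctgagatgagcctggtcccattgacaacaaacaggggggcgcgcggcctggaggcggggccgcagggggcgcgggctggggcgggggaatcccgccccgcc
FDPS: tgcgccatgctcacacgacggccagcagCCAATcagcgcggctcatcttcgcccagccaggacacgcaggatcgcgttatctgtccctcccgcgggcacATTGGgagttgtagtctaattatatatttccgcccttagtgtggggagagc
HMGCS1: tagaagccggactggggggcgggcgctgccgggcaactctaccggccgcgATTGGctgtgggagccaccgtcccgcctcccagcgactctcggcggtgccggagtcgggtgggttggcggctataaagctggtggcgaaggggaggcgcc
DHCR7: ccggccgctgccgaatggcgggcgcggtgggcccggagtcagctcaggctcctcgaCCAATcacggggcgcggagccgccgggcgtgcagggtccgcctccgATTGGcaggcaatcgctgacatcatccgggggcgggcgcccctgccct
GPAM: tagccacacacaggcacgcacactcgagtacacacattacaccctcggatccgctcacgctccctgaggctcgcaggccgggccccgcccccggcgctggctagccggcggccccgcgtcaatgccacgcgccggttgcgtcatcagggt
The SREBF2 stretch holds the sterol regulatory element core and a CCAAT box close together, FDPS and DHCR7 hold 2 CCAAT boxes each, and HMGCS1 holds 1. The GPAM stretch holds none of the 3 motifs, and its single CCAAT box lay after the start site, from position 17. This is not particular to GPAM. The same 150 bases of SCD and FADS2, which passed as higher in number 3 than in number 2, hold none either. The single CCAAT box of FADS2 also lay after the start site, from position 5.

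The libraries held 53065611 to 76958831 reads in genes, and in each group the library numbered 3 had the fewest. EHMT2 itself was lower by 1.21 on the log2 scale in shG9a_1 (adjusted p = 0.00766) and by 0.61 in shG9a_4 (adjusted p = 0.259), so the second hairpin's target did not pass the test. All 8 genes on the list of basal breast epithelium were at 1 CPM or more in every library. The list includes EPCAM, which marks epithelium in general. The hormone receptor genes ESR1 and PGR stayed at or under 0.398 and 0.0295 CPM, as is known of this line. GATA3, also on the luminal list, read 2.99 to 4.62 CPM across the libraries. GC-rich genes deviated by different amounts in different libraries. For the 1814 most GC-rich genes tested, the median log2 deviation from the gene's mean over the 9 libraries ran from -0.294 in shG9a_4 replicate 2 to 0.160 in shG9a_4 replicate 3. In bulk RNA, a change in a few cells and a smaller change in all of them cannot be told apart.

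In the control cells both pathways were expressed throughout, as the heat map of the 35 genes shows by library. Per kilobase of exon, the highest of the 35 in shSCR was FDPS at 127 CPM per kb, the synthase that makes farnesyl pyrophosphate. ACLY, the citrate lyase that supplies acetyl units to both pathways, followed at 114, and SQLE, the squalene epoxidase, at 106. MSMO1, which removes methyl groups from lanosterol's products, had 98.1 CPM per kb, and SCD, the main stearoyl desaturase, 80.9. The pathway's 3 regulator genes were lower on this scale, with 49.1 for INSIG1, 12.6 for SREBF2 and 7.34 for SREBF1. The lowest were CYP51A1 at 0.896 and TM7SF2 at 0.711 CPM per kb. The value of CYP51A1 is uncertain, since 2844 of its 3584 exon bases in GENCODE release 29 lie in other genes on the same strand, where a read cannot be given to 1 gene. FDPS has 8 named pseudogenes there, CYP51A1 has 3, HSD17B7 and TMEM97 have 2 each, and SCD and FADS2 have 1 each. Reads that map to several places may be missing from the counts of these genes. Together the 35 genes made up 6157 ± 775 CPM in shSCR, 5888 ± 972 in shG9a_1 and 6538 ± 783 in shG9a_4 (SD, n = 3 each). These sums overlapped between the groups.

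**Figure D1:**
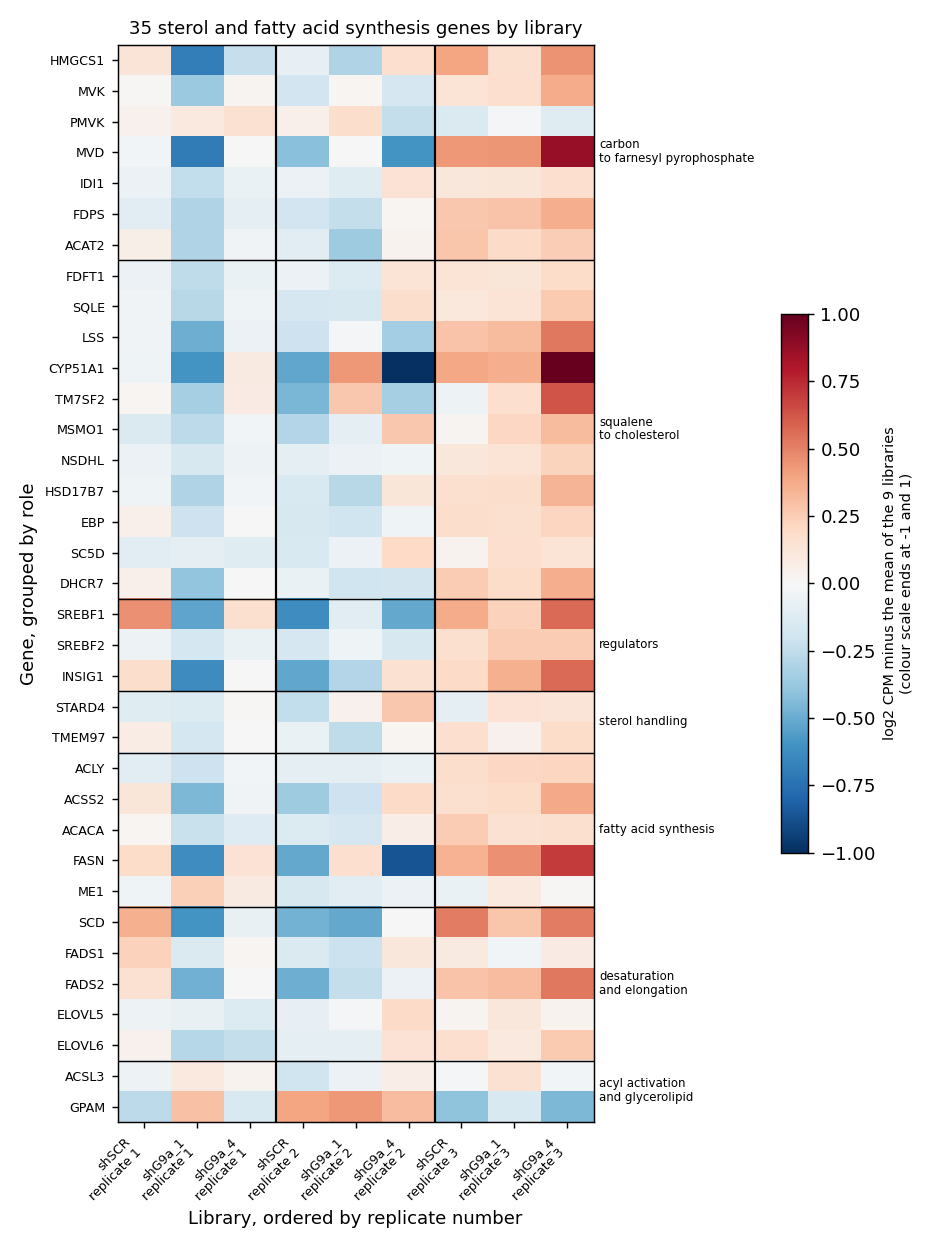
Heat map of log2 CPM minus each gene's mean over the 9 libraries, with the genes in rows by role and the libraries in columns by replicate number and, within a number, shSCR, shG9a_1 and shG9a_4. The columns of number 3 are red for most genes and blue for GPAM, and the colour scale ends at -1 and 1, which 2 values of CYP51A1 reach or pass.

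The first question was whether either hairpin against EHMT2 changed the 2 pathways. None of the 35 genes passed an adjusted p of 0.05 in shG9a_1 against shSCR, where 0.038% of all tested genes did (edgeR's quasi-likelihood test, Benjamini-Hochberg adjustment over all 18435 genes). None passed in shG9a_4 against shSCR either, against a background of 0.0271%. At an unadjusted p of 0.05, 0 of the 35 passed in shG9a_1 and 2 in shG9a_4, where 7.50% and 2.38% of all tested genes did. DESeq2 also called 0 of the 35 in both comparisons, and 0.369% and 0.0976% of the same 18435 genes, which hold all of its calls. With replicate number as a block the count stayed at 0 in both, while 0.776% and 0.0759% of all genes passed. The log2 fold changes of the 35 had a median of -0.061 in shG9a_1 (12 higher and 23 lower, all tested genes 0.001) and 0.076 in shG9a_4 (28 higher and 7 lower, all tested genes 0.002). In shG9a_1, no gene of the 35 had its 3 libraries all above or all below those of shSCR, as 7.15% and 7.54% of all genes did. In shG9a_4, STARD4 alone of the 35 lay all above and none all below (3.18% of all genes below). The comparisons share the shSCR libraries. Standard errors of the 35 genes ran from 0.0743 to 0.452 on the log2 scale in shG9a_1. Within each of the 3 replicate numbers, 9 of the 35 were lower in shG9a_1 than in shSCR (19.6% of all genes) and 5 were higher (19.5%). The 9 were HMGCS1, ACAT2, FDFT1, EBP, DHCR7, TMEM97, ACACA, SCD and FADS1. In shG9a_4, 9 were higher (12.5%) and 0 lower (12.5%) within each number.

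**Figure D2:**
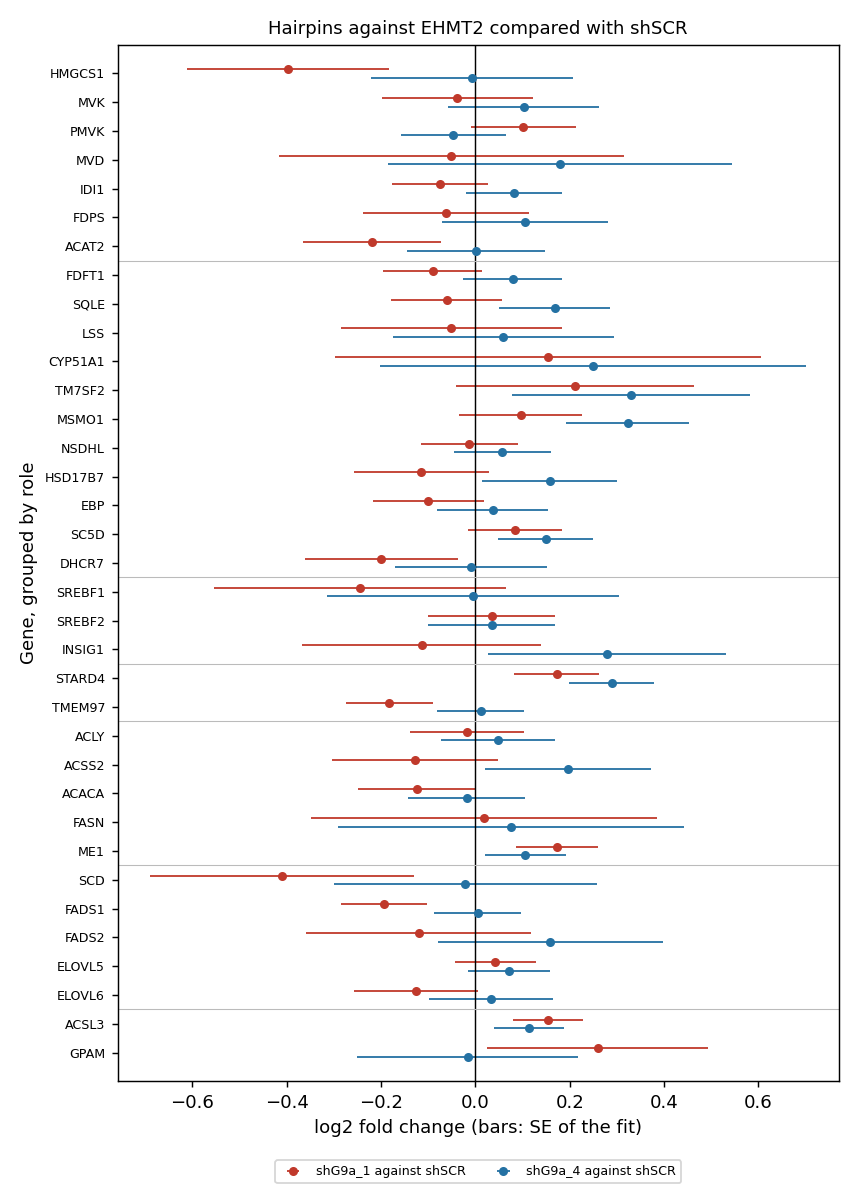
Log2 fold change of each gene in shG9a_1 (red) and shG9a_4 (blue) against shSCR, with bars for the standard error of the fit, in 3 libraries per group and with the genes grouped by role. No point passed an adjusted p of 0.05, and HMGCS1 and SCD lie farthest to the left for shG9a_1, at -0.40 and -0.41.

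Among the enzymes from acetyl units to farnesyl pyrophosphate, HMGCS1, the synthase that makes the precursor of mevalonate, had the largest difference in shG9a_1. Its CPM were 227.9, 197.1 and 273.9 in shSCR replicates 1 to 3, 128.6, 169.2 and 232.9 in shG9a_1, and 177.8, 233.6 and 283.9 in shG9a_4. Replicate 1 of shG9a_1 was the lowest of the 9, and the groups overlapped. The log2 fold change in shG9a_1 was -0.40 (SE 0.215, adjusted p = 0.732, or 0.103 with the block). HMGCS1 passed in this comparison when GC content was corrected in the blocked fit (-0.43, adjusted p = 0.0302). It also passed without the filter on low counts (0.00105), where 288 of 35793 genes did. In the blocked fit without shG9a_4 replicate 2 it passed too (0.0467), where 549 of 18877 genes did. DHCR7 and GPAM also passed in the GC-corrected blocked fit, at -0.23 (adjusted p = 0.0314) and 0.28 (0.0313), against a background of 5.34% of genes there. GPAM passed as well in the blocked fit without shG9a_1 replicate 2 (0.0382), where 238 of 18819 genes did. SCD passed without the filter (0.000574).

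In the steps from squalene to cholesterol, MSMO1 and SC5D had the smallest unadjusted p-values in shG9a_4. MSMO1 read 281.3, 253.7 and 315.8 CPM in shSCR, 259.3, 290.8 and 359.2 in shG9a_1 and 304.5, 373.2 and 386.1 in shG9a_4. Replicate 1 of shG9a_4 lay below shSCR replicate 3, so the groups overlapped. Its log2 fold change in shG9a_4 was 0.32 (SE 0.13, unadjusted p = 0.0311, adjusted p = 1.00, or 0.472 with the block). SC5D, the desaturase that places a double bond in the sterol ring, had 58.52, 56.92 and 64.79 CPM in shSCR, 59.15, 60.65 and 71.19 in shG9a_1 and 58.19, 72.37 and 69.29 in shG9a_4 (log2 fold change in shG9a_4 0.15, SE 0.1).

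STARD4, a carrier that moves cholesterol between membranes inside the cell, was the gene of the 35 with the smallest unadjusted p against shSCR. Its CPM were 67.17, 61.44 and 68.79 in shSCR, 66.30, 75.38 and 80.78 in shG9a_1 and 73.63, 87.85 and 79.72 in shG9a_4. All 3 shG9a_4 libraries lay above all 3 of shSCR, as they did for 3.25% of all tested genes. The log2 fold change was 0.29 (SE 0.0904, unadjusted p = 0.00862) and the adjusted p was 1.00, or 0.524 with the block. TMEM97, a membrane protein that binds sterols, had 96.47, 87.20 and 102.6 CPM in shSCR and 81.20, 76.59 and 94.44 in shG9a_1. Replicate 3 of shG9a_1 lay within the shSCR range (-0.18, SE 0.0925, adjusted p = 0.714, or 0.177 with the block). In shG9a_4 TMEM97 had 91.92, 92.92 and 103.8.

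Of the fatty acid genes, ME1, the malic enzyme that supplies NADPH, read 160.7, 148.0 and 158.1 CPM in shSCR, 195.4, 153.2 and 177.7 in shG9a_1 and 176.5, 158.8 and 167.1 in shG9a_4. The log2 fold change was 0.17 in shG9a_1 (SE 0.0868, adjusted p = 0.707, or 0.233 with the block). Replicate 2 of shG9a_1 lay within the shSCR range. ACSL3, which attaches coenzyme A to long fatty acids, had 416.0, 375.8 and 423.8 CPM in shSCR, 460.5, 413.9 and 478.5 in shG9a_1 and 442.3, 450.5 and 422.3 in shG9a_4. Its log2 fold changes were 0.15 (SE 0.0743, adjusted p = 0.687, or 0.351 with the block) and 0.11 (SE 0.0743, adjusted p = 1.00), with overlap in both. FADS1, the delta-5 desaturase of polyunsaturated fatty acids, had the smallest unadjusted p of the 35 in shG9a_1, at 0.0578. It read 271.7, 208.9 and 246.0 CPM in shSCR against 208.8, 199.7 and 226.5 in shG9a_1. There replicate 3 lay within the shSCR range (-0.19, SE 0.0915, adjusted p = 0.681, or 0.328 with the block). SCD averaged 434 ± 142 CPM in shSCR and 326 ± 116 in shG9a_1 (SD, n = 3 each), with overlap (-0.41, SE 0.279, adjusted p = 0.800, or 0.223 with the block).

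The 2 hairpins were compared with each other as well. No gene of the 35 passed in shG9a_4 against shG9a_1, and none of all tested genes did (0%). At an unadjusted p of 0.05, 0 of the 35 and 4.09% of all genes passed, and DESeq2 called 0 of the 35 and 0.0217% of the 18435 genes. The 35 genes had a median log2 difference of 0.158 (31 higher and 4 lower in shG9a_4, all tested genes -0.001). FADS1, with 234.4, 249.9 and 244.4 CPM in shG9a_4, lay above all 3 shG9a_1 libraries, the one gene of the 35 to do so, as did 5.06% of all genes (0.20, SE 0.0915, unadjusted p = 0.053, adjusted p = 1.00). No gene of the 35 lay below all 3 (4.11%). SQLE read 452.3, 413.6 and 498.0 CPM in shSCR, 383.0, 414.9 and 509.7 in shG9a_1 and 450.3, 524.5 and 557.4 in shG9a_4, with overlap. HSD17B7, a ketoreductase that acts on sterol intermediates, read 27.92, 25.85 and 32.13 CPM for shSCR, 23.35, 23.66 and 32.35 for shG9a_1 and 28.13, 31.27 and 36.41 for shG9a_4, also with overlap. HMGCS1, INSIG1 and SCD passed in this comparison without the filter on low counts (adjusted p = 0.004, 0.0037 and 0.0037), where 106 of 35793 genes did.

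The authors' deposited tables of each hairpin against shSCR listed 29 of the 35 genes. At a posterior probability of different expression of 0.95 they called 0 of the 29 in either table, where 2.92% and 0.599% of the 11015 listed genes passed. The highest probability in the authors' deposited table was 0.106, for STARD4 in shG9a_4, with a fold of 1.22. Their folds for the 29 genes ran from 0.742 to 1.19 in shG9a_1 and from 0.964 to 1.25 in shG9a_4.

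More of the 35 genes differed by replicate number than by hairpin. In a fit with hairpin and replicate number, 16 of the 35 genes (45.7%) passed an adjusted p of 0.05 for the number, where 7.47% of all tested genes did. At an unadjusted p of 0.05, 29 of the 35 passed, or 82.9% against 23.2% of all tested genes. The 35 genes summed to 5754 ± 564 CPM in the libraries numbered 1, 5722 ± 454 in those numbered 2 and 7107 ± 279 in those numbered 3 (SD, n = 3 each). Number 3 was the highest library for 29 of the 35 genes within shSCR (34% of all tested genes), for 30 within shG9a_1 (30%) and for 27 within shG9a_4 (37.3%). It was the highest in all 3 groups for 24 of the 35, against 13% of all genes. For 15 of the 35, all 3 libraries numbered 3 lay above the other 6, against 6.92% of all genes, and for 0 of the 35 they lay below (7.2%).

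Number 3 against number 2 had 18 of the 35 past the threshold (8.11% of all genes), 17 of them higher (3.53%) and 1, GPAM, lower (4.59%). The median log2 difference of the 35 was 0.319, where that of all tested genes was 0.003. Number 3 against number 1 had 15 past the threshold (4.34%), all of them higher (2.68%), with a median of 0.324. Numbers 2 and 1 differed in 1 gene, GPAM (1.62% of all genes), with a median of -0.010. The 2 contrasts with number 3 share its libraries.

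**Figure D3:**
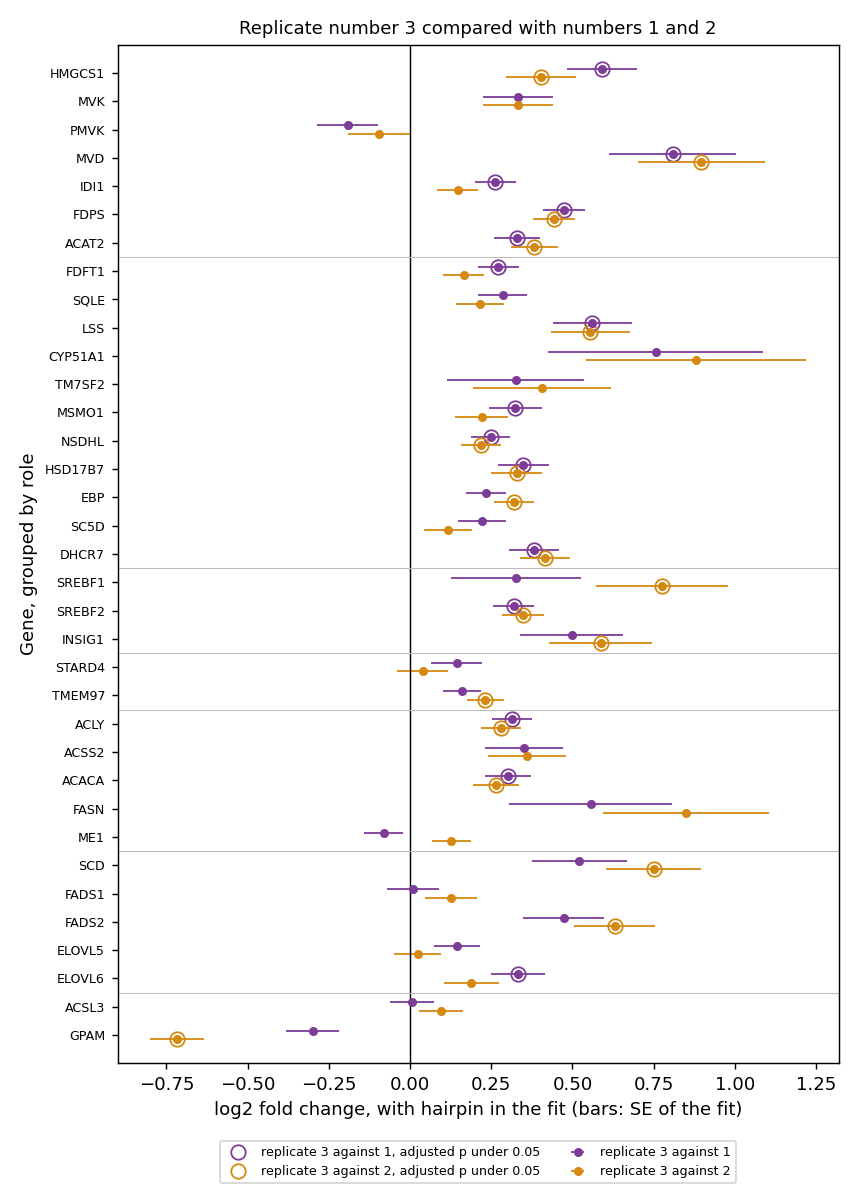
Log2 fold change of each gene in number 3 against number 1 (purple) and against number 2 (orange) from the fit with hairpin and number, with bars for the standard error and open rings where the adjusted p was under 0.05. Most points lie right of 0, with medians of 0.324 and 0.319, and GPAM and PMVK lie left in both.

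Of the 7 genes from acetyl units to farnesyl pyrophosphate, 4 passed for replicate number (7.47% of all tested genes): HMGCS1, MVD, FDPS and ACAT2. FDPS read 437.7, 412.9 and 569.6 CPM in shSCR replicates 1 to 3, 383.4, 401.1 and 576.0 in shG9a_1 and 442.8, 478.7 and 606.7 in shG9a_4. The 3 libraries numbered 3 stood above the other 6. The log2 fold change was 0.47 against number 1 (SE 0.0646) and 0.44 against number 2 (SE 0.0645), with an adjusted p of 0.00145 for the number. ACAT2, which joins acetyl units at the pathway's entry, had 137.5, 121.9 and 159.5 CPM in shSCR, 106.9, 102.8 and 150.1 in shG9a_1 and 128.5, 134.7 and 156.3 in shG9a_4 (adjusted p = 0.0119). Here too number 3 did not overlap with the rest. HMGCS1, whose values are given above, differed by 0.59 from number 1 (SE 0.108) and by 0.40 from number 2 (SE 0.108), but shG9a_1 replicate 3 lay just under shG9a_4 replicate 2. MVD, which makes isopentenyl pyrophosphate, had the largest differences of this step, 0.81 (SE 0.194) and 0.90 (SE 0.195). PMVK, a kinase in the middle of the same step, had values of -0.19 and -0.10 (adjusted p = 0.417 for the number, or 0.023 with GC correction).

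Of the 11 genes from squalene to cholesterol, 6 passed (7.47% of all tested genes): FDFT1, LSS, NSDHL, HSD17B7, EBP and DHCR7. DHCR7, a reductase of the last steps, read 128.8, 119.1 and 148.5 CPM in shSCR, 94.87, 108.4 and 141.9 in shG9a_1 and 124.1, 109.9 and 159.9 in shG9a_4. Each library numbered 3 was above all libraries of the other numbers. The log2 fold changes were 0.38 and 0.42 (SE 0.0776 each, adjusted p = 0.0105 for the number). LSS, the cyclase that makes lanosterol, had 0.56 and 0.55 (SE 0.121 each, adjusted p = 0.0175). All 11 genes were higher in number 3 in both contrasts by their fitted values, and the 5 that did not pass for the number were SQLE, CYP51A1, TM7SF2, MSMO1 and SC5D.

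The regulators differed among themselves. SREBF2, whose product mainly drives sterol genes, read 92.33, 85.05 and 107.2 CPM in shSCR, 84.61, 92.87 and 113.9 in shG9a_1 and 91.67, 85.65 and 114.2 in shG9a_4. The libraries numbered 3 did not overlap with the other 6 (0.32 and 0.35, SE 0.0638 each, adjusted p = 0.00968). INSIG1, a sterol-responsive brake on SREBP release, had 204.9, 126.2 and 206.9 CPM in shSCR, 117.4, 148.1 and 231.6 in shG9a_1 and 182.2, 201.1 and 269.3 in shG9a_4. It did not overlap either, but by a narrow gap in shSCR, and its adjusted p for the number was 0.0657 (0.59 against number 2, SE 0.158, adjusted p = 0.0444). SREBF1, whose product mainly drives fatty acid genes, read 73.20, 34.69 and 69.00 CPM in shSCR, 37.07, 49.45 and 62.78 in shG9a_1 and 59.73, 37.47 and 79.06 in shG9a_4. The highest shSCR library was number 1, and the adjusted p for the number was 0.0824 (0.78 against number 2, SE 0.202, adjusted p = 0.0393). Neither sterol handling gene passed for the number, though TMEM97 passed against number 2 (0.23, adjusted p = 0.0336).

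Of the 5 fatty acid synthesis genes, ACLY and ACACA passed for the number (7.47% of all tested genes). ACLY read 550.6, 560.6 and 673.4 CPM in shSCR, 516.0, 558.6 and 687.4 in shG9a_1 and 585.2, 569.6 and 690.3 in shG9a_4. The 3 libraries numbered 3 lay close together and above the rest (0.31 and 0.28, SE 0.0606 and 0.0605, adjusted p = 0.0133). FASN, the fatty acid synthase, had 325.5, 200.5 and 362.9 CPM in shSCR, 185.9, 322.1 and 391.9 in shG9a_1 and 315.3, 157.0 and 464.5 in shG9a_4. Number 3 was again above the other 6, but these 6 spread widely, and the adjusted p was 0.118 (0.56 and 0.85, SE 0.252 and 0.255). ME1 was the one gene of this step below its number 1 level in number 3 (-0.08, adjusted p = 0.494).

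Among the 5 desaturases and elongases, SCD and FADS2 passed for the number (7.47% of all tested genes). SCD differed by 0.52 from number 1 (SE 0.146) and by 0.75 from number 2 (SE 0.146, adjusted p = 0.0191 for the number). FADS2, the delta-6 desaturase, differed by 0.47 and 0.63 (SE 0.125 each, adjusted p = 0.0192). FADS1, its neighbour in the pathway, differed by 0.01 and 0.13 (adjusted p = 0.514). GPAM, the mitochondrial enzyme that starts glycerolipid synthesis, was lower in number 3. Its CPM were 87.86, 138.4 and 79.82 in shSCR, 128.9, 142.8 and 94.80 in shG9a_1 and 95.20, 130.4 and 77.17 in shG9a_4. Number 2 was the highest in all 3 groups. Number 3 was the lowest in all 3, as for 13.9% of all genes and for no other gene of the 35. The log2 fold change was -0.72 against number 2 (SE 0.0818) and -0.30 against number 1 (SE 0.0817), with an adjusted p of 0.000919, the smallest of the 35.

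**Figure D4:**
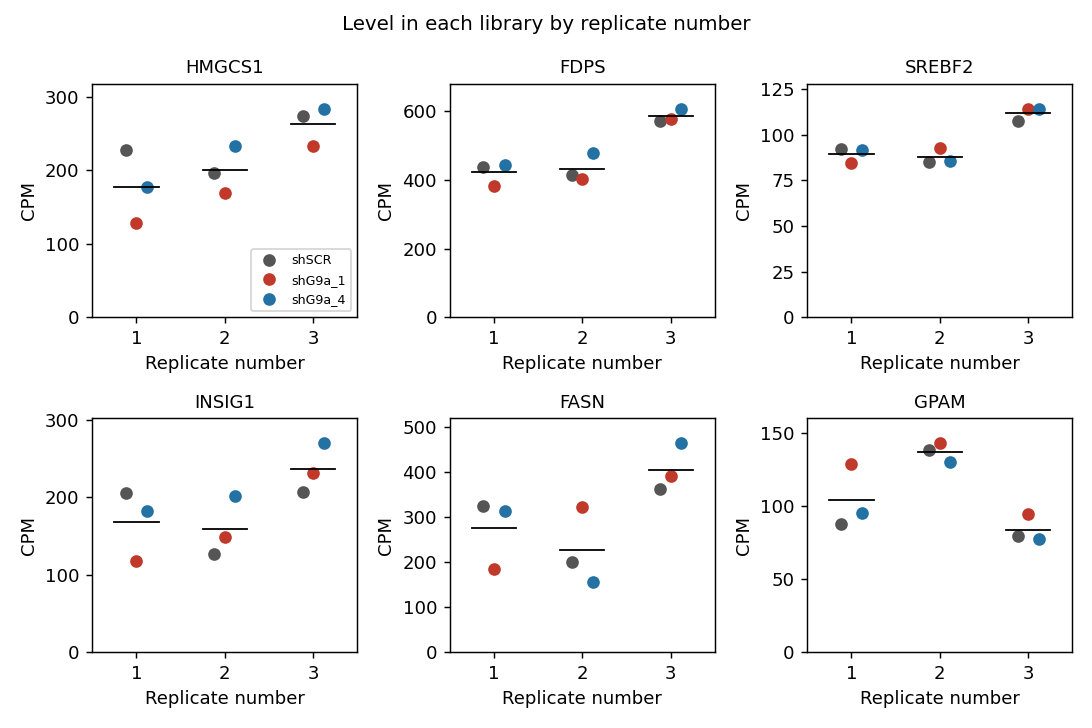
CPM of 6 genes in each library against replicate number, with points coloured by hairpin and black bars for the mean of the 3 libraries of a number. FDPS, SREBF2, INSIG1 and FASN have their 3 highest values in number 3, HMGCS1 nearly so, and GPAM has its 3 highest in number 2.

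The count of 16 rested on the libraries numbered 3. It was 4 without shSCR replicate 3, 2 without shG9a_1 replicate 3 and 3 without shG9a_4 replicate 3, where 529, 507 and 435 of all genes passed instead of 1377. It was 10 without shSCR replicate 2, where 903 of all genes passed. Without each of the others it was between 12 and 23, where 987 to 2109 of all genes passed. For number 3 against number 1, the 15 became 3, 1 and 1 without replicate 3 of shSCR, shG9a_1 and shG9a_4, and 1 and 2 without replicate 1 of shG9a_1 and shG9a_4. For number 3 against number 2, the 18 became 9, 2 and 3 without the same libraries numbered 3, and 4 without shSCR replicate 2. Counts over all genes were not taken for these contrasts with a library left out, so these falls have no background beside them. Leaving out a library also left the fit with fewer residual degrees of freedom. FDPS and GPAM passed for the number under each of the 16 settings tried, the 9 with a library left out among them. DESeq2 called 22 of the 35, the 16 among them (8.59% of the 18435 genes).

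The GC-rich genes and the others deviated by different amounts in the same library. The 11 genes with 55% GC or more, FASN, MVD, LSS and SREBF1 among them, had a median log2 deviation of -0.234 in shG9a_4 replicate 2, where the 24 with less GC had 0.130. In the libraries numbered 3 both were above 0, at 0.250 to 0.524 for the GC-rich genes and 0.149 to 0.214 for the others. Of the GC-rich genes 6 of 11 passed for the number, where 6.34% of all genes in that GC class did, and of the others 10 of 24, where 7.91% did. When a GC trend was removed from each library, 30 of the 35 passed (14.8% of all genes), the 16 among them. They were 10 of 11 GC-rich genes (14.4% of all genes in the class) and 20 of 24 others (14.9%). CYP51A1, TM7SF2, ACSS2, FADS1 and ELOVL5 did not. In this fit 25 passed in number 3 against number 1 (9.62% of genes), 23 higher and 2 lower, and 29 against number 2 (13.8%), 27 higher and 2 lower. The 2 lower genes were GPAM and PMVK in both, with -0.26 (adjusted p = 0.0174) and -0.20 (0.0393) for PMVK.

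Other features of the libraries moved with the number as well. The libraries numbered 3 had the fewest reads in their groups. The 7 fibroblast markers came to 140 to 197 CPM in number 3 and 280 to 422 in the others. Nearly all of this sum was DCN. LUM read 2.40 to 7.69 CPM and COL1A1 1.03 to 1.92, while COL1A2, COL3A1, PDGFRA and PDGFRB stayed under 1 CPM in every library. The 8 genes of the basal list, EPCAM included, came to 4078 to 4779 CPM in number 3 and 2852 to 4353 in the others. The 5 adipocyte markers came to 16.9 to 32.6 CPM in number 3 and 6.05 to 18.6 in the others, most of it FABP4. CIDEC read 0.947 to 3.25 CPM, ADIPOQ was at most 0.224, PLIN1 at most 0.705 and LEP 0 in every library. The part of depth and of these genes in the result was not tested.

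Genes around the 2 pathways were read from lists fixed in the same way. None of the 5 genes that control SREBP cleavage and transport, SCAP, MBTPS1, MBTPS2, INSIG2 and SPRING1, passed for a hairpin or for the number (lowest adjusted p for the number 0.271). With GC correction 1 of the 5 passed for the number (14.8% of all genes), MBTPS1, a protease that cleaves SREBPs. It was lower in number 3 than in number 2 (-0.15, adjusted p = 0.025). Of the isoprenoid side branches and sterol reductases, 1 of 7 tested passed for the number (7.47% of all genes), NUS1, a subunit of the enzyme that makes dolichol chains, which was lower in number 3 (-0.34 and -0.44, adjusted p = 0.0137). LBR, a sterol reductase of the nuclear envelope, did not (0.03 and 0.13, adjusted p = 0.509). It passed with GC correction (0.0269, where 14.8% of all genes passed), at 0.24 above number 2. Of 23 other fatty acid and glycerolipid genes, 6 passed for the number (7.47%), in mixed directions. ACSL5, which also activates long fatty acids, had the smallest adjusted p of these lists (0.00139) and read 4.34, 7.08 and 8.49 CPM in shSCR. It was higher than number 1 by 0.76 in number 2 and by 0.88 in number 3. ACSL4, which activates polyunsaturated fatty acids, fell by 0.46 from number 2 to number 3 (adjusted p = 0.00852 for the number), and LPIN1, which makes diacylglycerol, had fitted values of 0.37 and 0.42 in number 3 (0.0381). Of 7 sterol export genes and targets of the liver X receptor, a sensor of oxidised sterols, 2 passed (7.47%), or 5 with GC correction (14.8%). ABCA1, the cholesterol exporter, was lower in number 3 by fitted values of -0.89 and -0.70 (adjusted p = 0.0332), at about 2 CPM in all groups. ABCG1 was at 0.52 CPM in shSCR. NUS1, ACSL5, LPIN1, MBTPS1, ABCA1 and ABCG1 were named after their values were seen.

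No gene of these lists passed for a hairpin in the fit without the block. With replicate number as a block, 2 passed in shG9a_1 (0.776% of all genes). SOAT1, which esterifies cholesterol for storage, rose from 126 to 166 CPM (log2 fold change 0.40, adjusted p = 0.0263 with the block and 0.162 without). ACSL4 rose from 483 to 628 CPM (0.38, adjusted p = 0.0472 with the block and 0.644 without). In shG9a_4 SOAT1 differed from shSCR by 0.33 (adjusted p = 0.561) and ACSL4 by 0.32 (adjusted p = 1.00). In the blocked fit with GC correction ACSL5 (0.43, adjusted p = 0.0163) and FADS3, a relative of FADS1 and FADS2 (0.29, 0.0494), passed in shG9a_1 as well, where 5.34% of genes did. SOAT1 passed in shG9a_4 too (adjusted p = 0.0055, background 0.27%).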

How the data were processed

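The authors deposited whole-number counts of reads per gene for each library, in the layout of STAR's gene counts with unstranded, sense and reverse-strand columns, in which a read that maps to several places is not counted. Tools in the submitters' processing notes, listed there without roles, are DESeq, edgeR 3.14.0, STAR 2.5.2a and R 3.3.1, beside the builds hg19 and GRCh37. No annotation release was given in the sources used here. For the hairpins the authors also deposited 2 tables with, per the file headers, posterior probabilities as a score from 0 to 1 and linear fold ratios. Counts of the reverse strand, which held 94.7 to 95.1% of stranded reads, entered the fits; classes that name no gene held 23.2 to 27.7% of read pairs and were left out. The 35 genes, the lists around them and the comparison by replicate number were chosen with earlier results of these data known.

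Tests used edgeR 4.0.16 with R 4.3.3 (quasi-likelihood F-test, TMM, filterByExpr), in 1 fit of all 9 libraries with a mean per group and 6 residual degrees of freedom. Replicate number was tested in a fit of hairpin and number with 4. P-values were adjusted by Benjamini-Hochberg over all tested genes, at 0.05. Whether the numbers pair the libraries was checked on deviations from group means. The 9 pairs of libraries with the same number correlated at 0.178 to 0.461 (mean 0.303). Blocked values are therefore given where they change a call, and for some genes where they do not. The 18 other pairs averaged -0.152, which is no separate evidence, since the deviations within a group sum to 0. Scripts were tested on simulated data. Values of every library were given for the 4 genes with the smallest p in each hairpin comparison, the 6 smallest for the number, and SREBF1, SREBF2, INSIG1 and FASN; HMGCS1 and the other genes described with values were added after their values were seen. Alternatives were RLE scaling, DESeq2 1.42.0, no filter, a minimum of 1 CPM in 3 libraries, unstranded counts, only the groups compared, the replicate block and leaving out each library. A GC correction (lowess of log2 CPM on transcript GC, span 0.3) and leaving out libraries in the blocked fit, and counts of genes higher or lower within each replicate number, were chosen after seeing the data. Exon lengths, GC and pseudogene names came from GENCODE release 29, matched by gene ID, and 98.4% of tested genes had a GC value.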

Additional observations from a re-analysis of the deposited data

How the results depend on the processing

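Of 2835 values of the 35 genes under the alternatives, 235 changed sign without passing in either fit, all from log2 fold changes within 0.249, and 0 called values reversed. RLE scaling, the 1 CPM filter and unstranded counts kept each count over the 35 genes within 1.5 times. Without the filter on low counts, the genes of the 35 that passed were 2 in shG9a_1, 3 in shG9a_4 against shG9a_1, 25 for replicate number, 4 for number 2 against 1 and 25 for 3 against 1, and the counts over all genes were 288, 49, 106 and 2874 (shG9a_1, shG9a_4, the hairpins against each other, number). GC correction gave 30 for the number and 2, 25 and 29 for its contrasts (2 against 1, 3 against 1, 3 against 2), and 17, 10, 1 and 2682 over all genes; with the replicate block added it gave 3 of the 35 in shG9a_1 and 968, 49 and 65 over all genes. The replicate block alone gave 143 and 14 genes in shG9a_1 and shG9a_4 instead of 7 and 5, and changed no call among the 35. DESeq2 gave 68, 18 and 4; in shG9a_4, unstranded counts gave 1 gene and a fit of the 2 groups alone 0. Leaving out each library gave 2 to 23 of the 35 for the number, and 0 to 2, 1 to 21 and 2 to 21 for its contrasts. Over all genes it gave 0 to 10, 0 to 7 and 435 to 2109 (shG9a_1, shG9a_4, number), and with the replicate block 0 to 1 of the 35 in shG9a_1 and 4 to 549, 1 to 26 and 0 to 17 over all genes. Fewer libraries left fewer degrees of freedom; the other causes were not tested.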
